A study of Mus musculus with 12 samples.

Results

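The hypothalamus of mice that drank aspartame was set against the hypothalamus of mice exposed in development to a drug that blocks the NMDA receptor (NMDAR), a receptor for glutamate, with no control group between them. Both groups, ASP and CGP, had 3 arrays each, and these were 6 of the 12 Affymetrix Mouse Gene ST arrays in the series. All probe sets with exactly 1 gene symbol entered the comparison, whichever way they moved, and 17186 genes were tested after weak signals were removed. All mice were male C57Bl/6J, 21 weeks old, kept on standard chow and fasted overnight. ASP mice received aspartame, an artificial sweetener that yields aspartate, phenylalanine and methanol on digestion, through the mother from conception and then in their own drinking water for life, at 46 mg/kg of body weight by the sample labels. CGP mice never had aspartame. They were exposed to CGP 39551, a competitive NMDAR antagonist, which the mother drank at 5 mg/kg from conception until the pups were 28 days old, so that the drug had been withdrawn for months when tissue was taken. The remaining 6 arrays came from control mice on plain water (CON) and from mice given both agents (ASP+CGP).

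The RNA of all mice in a group was combined, and the 3 arrays of a group repeated the measurement of a single pool. The p-values below therefore measure the spread between arrays of a pool and not between mice, and treatment and pool cannot be told apart. Across genes, r was 0.9979 to 0.9986 between arrays of one pool and 0.9913 to 0.9923 between an ASP and a CGP array, where genes are not independent replicates. Across all genes the median log2 fold change, ASP minus CGP, was −0.03, and 95.2% of genes lay within 0.2 of 0. The dissected block carried its defining transcripts in both pools. The mean log2 signal was 11.77 in ASP and 11.78 in CGP for Pmch, the melanin-concentrating hormone gene, and 12.49 and 12.54 for Hcrt, the orexin gene.

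The hypothalamus lies at the base of the brain, below the thalamus and above the pituitary gland, which it commands through releasing hormones. The stalk of the pituitary gland and the thalamus border a dissected block of this region. Through corticotropin the pituitary drives the adrenal cortex, whose enzymes turn cholesterol into corticosterone, while the adrenal medulla makes catecholamines. NMDARs are glutamate-gated channels that also need glycine or D-serine, and their activity during development shapes which synapses persist.

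The ASP pool stood apart from the CGP pool by transcripts typical of the adrenal gland, exocrine pancreas and fat. A gene was called differentially expressed (DEG) where limma gave it an adjusted p (Benjamini-Hochberg) under 0.05 and its fold change exceeded 1.4. By this rule 162 genes, 0.943% of those tested, were higher in ASP and 0 were higher in CGP. That share of 0.943% is the background for every list count below, and a count of 0 in a short list lies near it. At an unadjusted p under 0.05 there were 967 genes higher in ASP and 1777 higher in CGP, and an ordinary linear model without moderated spread also called 0 genes higher in CGP. The fold change of the DEGs was between 1.4 and 2 for 99 genes, between 2 and 4 for 35, between 4 and 16 for 21 and above 16 for 7, with a median log2 fold change of 0.84. All 162 had ASP arrays above all CGP arrays, as had 9.9% of all genes. In 16 DEGs the CGP mean was under 6, the level used to remove weak signals, so the size of their log2 fold change rests on a weak CGP signal. The filter needed 3 arrays at 6 or more, the size of 1 group. Genes under 6 in the other pools, such as Hsd3b1, Mc2r, Fabp4 and Adipoq, were therefore tested only through their ASP arrays. Their calls are no independent support for the list counts below. Without the filter the same 162 genes were called. Against a signal of 6 the ASP level of Acsm3, Adtrp, Elovl3 and Il23r was 1.14-fold, 1.24-fold, 1.18-fold and 1.3-fold higher, under the fold threshold.

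**Figure D1:**
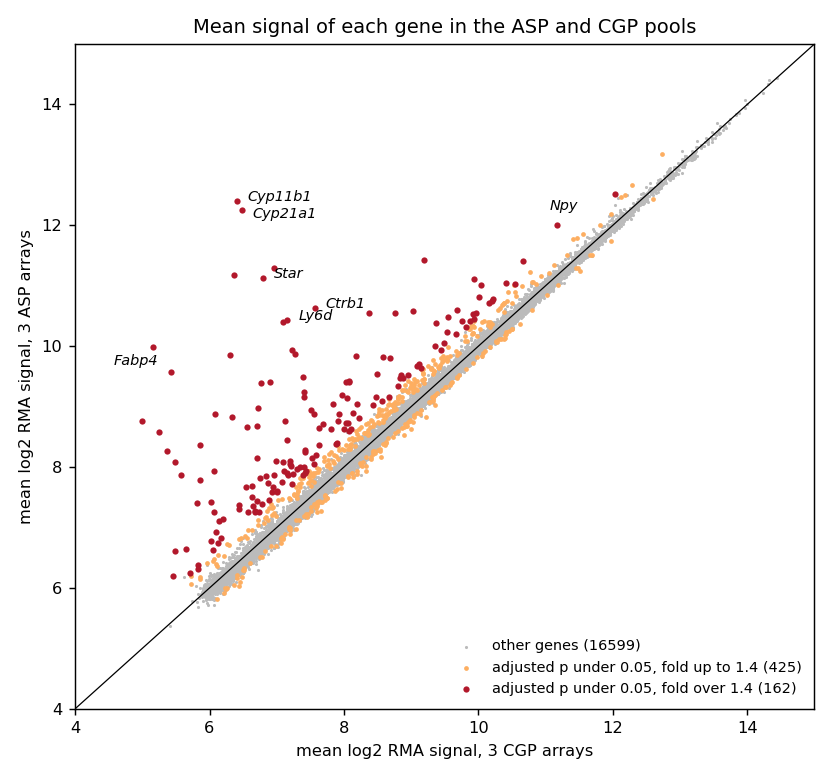
Mean log2 RMA signal of each of 17186 genes in the 3 CGP arrays (x axis) and the 3 ASP arrays (y axis), with the line of equality. The 162 DEGs (red) all lie above the line, while the genes that passed by adjusted p alone (orange) lie on both sides.

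The adrenal cortex list led the comparison. Of its 19 measured genes, 13 were DEGs higher in ASP, against 0.943% of all genes, and the median log2 fold change of the list was 1.44. The count includes Hsd3b1 and Mc2r, which passed the signal filter only through ASP. Cyp11b1, the 11 beta-hydroxylase that completes corticosterone, had log2 signals of 6.39, 6.49 and 6.32 on the CGP arrays and 12.44, 12.39 and 12.39 on the ASP arrays. The ASP arrays lay far above the CGP arrays, with a log2 fold change of 6.001 ± 0.06 (SE), or 64.0-fold (limma adjusted p = 1.59e-16). In bulk tissue, fewer cells of a type and less RNA per cell cannot be told apart.

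The steps of steroid synthesis before Cyp11b1 differed in the same direction. Star, which brings cholesterol into mitochondria, read 6.73, 6.91 and 6.76 in CGP and 11.10, 11.15 and 11.16 in ASP (20.2-fold). Cyp11a1, which cleaves the cholesterol side chain, read 6.43, 6.21 and 6.43 in CGP and 11.19, 11.16 and 11.19 in ASP (28.3-fold). Cyp21a1, the 21-hydroxylase, read 6.52, 6.34 and 6.59 in CGP and 12.22, 12.31 and 12.22 in ASP (54.4-fold). In each of these 3 genes all CGP arrays lay far below all ASP arrays. Hsd3b1, a 3 beta-hydroxysteroid dehydrogenase, was 28.5-fold higher in ASP, but its CGP mean of 5.16 lay near background, and against a signal of 6 the ASP level was 15.9-fold higher. The log2 fold change was 1.34 ± 0.06 for Fdx1, the ferredoxin that feeds electrons to Cyp11a1, and 1.44 ± 0.09 for Cyp11b2, the aldosterone synthase. Cyp11b1 and Cyp11b2 are close relatives, as are Hsd3b1 and Hsd3b6, so probes of each pair could share transcripts.

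Genes for the supply and control of steroid synthesis were also DEGs. Mc2r, the corticotropin receptor, read 5.19, 4.80 and 5.01 in CGP and 8.48, 8.78 and 9.04 in ASP, a log2 fold change of 3.77 ± 0.12. All its CGP arrays lay below 6, and against a signal of 6 the ASP level was 6.81-fold higher. Its accessory protein gene Mrap differed by 2.10 ± 0.06 and Scarb1, which takes up cholesterol from lipoproteins, by 2.23 ± 0.05. The transcription factor gene Gata6 differed by 0.98 ± 0.08. Nr5a1, a factor needed both for the adrenal gland and for the ventromedial hypothalamus, read 8.44, 8.44 and 8.40 in CGP and 9.05, 9.03 and 9.01 in ASP, a smaller difference of 0.60 ± 0.05 from a level well above background. The 6 measured members that were not DEGs were Stard4, Npc1, Inha, Cyp17a1, Nr0b1 and Dlk1. Cyp17a1, the 17-hydroxylase that adult mouse adrenals lack, differed by 0.16 ± 0.05 (limma adjusted p = 0.0935). Mgarp, a mitochondrial protein gene of steroid-making cells that is on no list, was among the 12 largest differences with 3.33 ± 0.05, but its CGP mean was 5.26, and against a signal of 6 the ASP level was 5.99-fold higher. Outside the lists, Agtr1a, the angiotensin receptor gene, differed by 2.16 ± 0.06, Kcnk3, an acid-sensitive potassium channel gene, by 0.98 ± 0.05, and the aldo-keto reductase gene Akr1cl by 2.61 ± 0.12, or 4.26-fold against a signal of 6, since its CGP mean was 5.48.

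The adrenal medulla list, which also holds genes of catecholamine neurons, had 4 DEGs of 15, against 0.943% of all genes. All were higher in ASP, and the list median was 0.25. Pnmt, which turns norepinephrine into epinephrine, read 6.76, 6.70 and 6.82 in CGP and 9.21, 9.45 and 9.51 in ASP, a difference of 2.63 ± 0.10. Dbh, which forms norepinephrine, differed by 2.81 ± 0.07. Slc18a1, the vesicular transporter gene of chromaffin cells, differed by 0.66 ± 0.06 and Th, tyrosine hydroxylase, by 0.64 ± 0.07. Th is made by hypothalamic neurons too, and its level was high in both pools, with 10.41, 10.42 and 10.40 in CGP and 11.04, 11.07 and 11.05 in ASP. With Chga, Chgb, Phox2a and Gch1, which were not DEGs, 8 of the 15 were higher in ASP by adjusted p alone, as were 2.47% of all genes.

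Exocrine pancreas genes, which encode digestive enzymes, were DEGs higher in ASP for 15 of 25 members, against 0.943% of all genes, with a median of 0.86. Ctrb1, chymotrypsinogen B, read 7.57, 7.59 and 7.53 in CGP and 10.69, 10.69 and 10.51 in ASP (8.39-fold). The carboxypeptidase genes Cpa1 and Cpb1 differed by 2.51 ± 0.06 and 2.51 ± 0.06, and Zg16 and Clps, a zymogen granule protein and the colipase gene, by 1.93 ± 0.08 and 1.65 ± 0.05. The CGP means of Cpb1 and Zg16, 5.85 and 5.86, lay just under 6, and against a signal of 6 the ASP levels were 5.14-fold and 3.46-fold higher. The lineage factor Ptf1a was not a DEG (−0.16), nor was any of 6 islet genes (median −0.06), Ins2 among them (−0.04).

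Adipose genes followed. In the white adipose list 12 of 20 were DEGs higher in ASP, against 0.943% of all genes, with a median of 0.64. Fabp4, the fatty acid binding protein of adipocytes, read 5.45, 5.38 and 5.46 in CGP and 9.69, 9.72 and 9.31 in ASP. The difference was 17.7-fold, or 11.9-fold against a signal of 6, since the CGP arrays lay under 6. Car3, a carbonic anhydrase abundant in fat, differed by 4.33 ± 0.07, the fatty acid transporter gene Cd36 by 2.90 ± 0.08, and the adipokine genes Retn and Adipoq by 2.72 ± 0.07 and 2.30 ± 0.08. The CGP means of Cd36 and Adipoq, 5.37 and 5.57, lay under 6, and against a signal of 6 the ASP levels were 4.83-fold and 3.67-fold higher. The lipid droplet genes Cidec and Plin1 differed by 2.60 ± 0.05 and 1.44 ± 0.07. Lep, the leptin gene (0.12), and Plin4 (0.15) were not DEGs. Brown fat genes were DEGs for 4 of 9 members, against the same 0.943% of all genes. Ucp1, the uncoupling protein of heat production, read 6.36, 6.26 and 6.39 in CGP and 8.77, 8.87 and 8.83 in ASP (5.61-fold), without overlap. Cox8b differed by 1.76 ± 0.05, Cidea by 1.02 ± 0.07 and Elovl3 by 0.54 ± 0.07. The call of Elovl3 was not firm, since its CGP mean was 5.71 and its ASP level only 1.18-fold above a signal of 6, and without the third CGP array its difference was 0.48, just under the fold threshold.

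**Figure D2:**
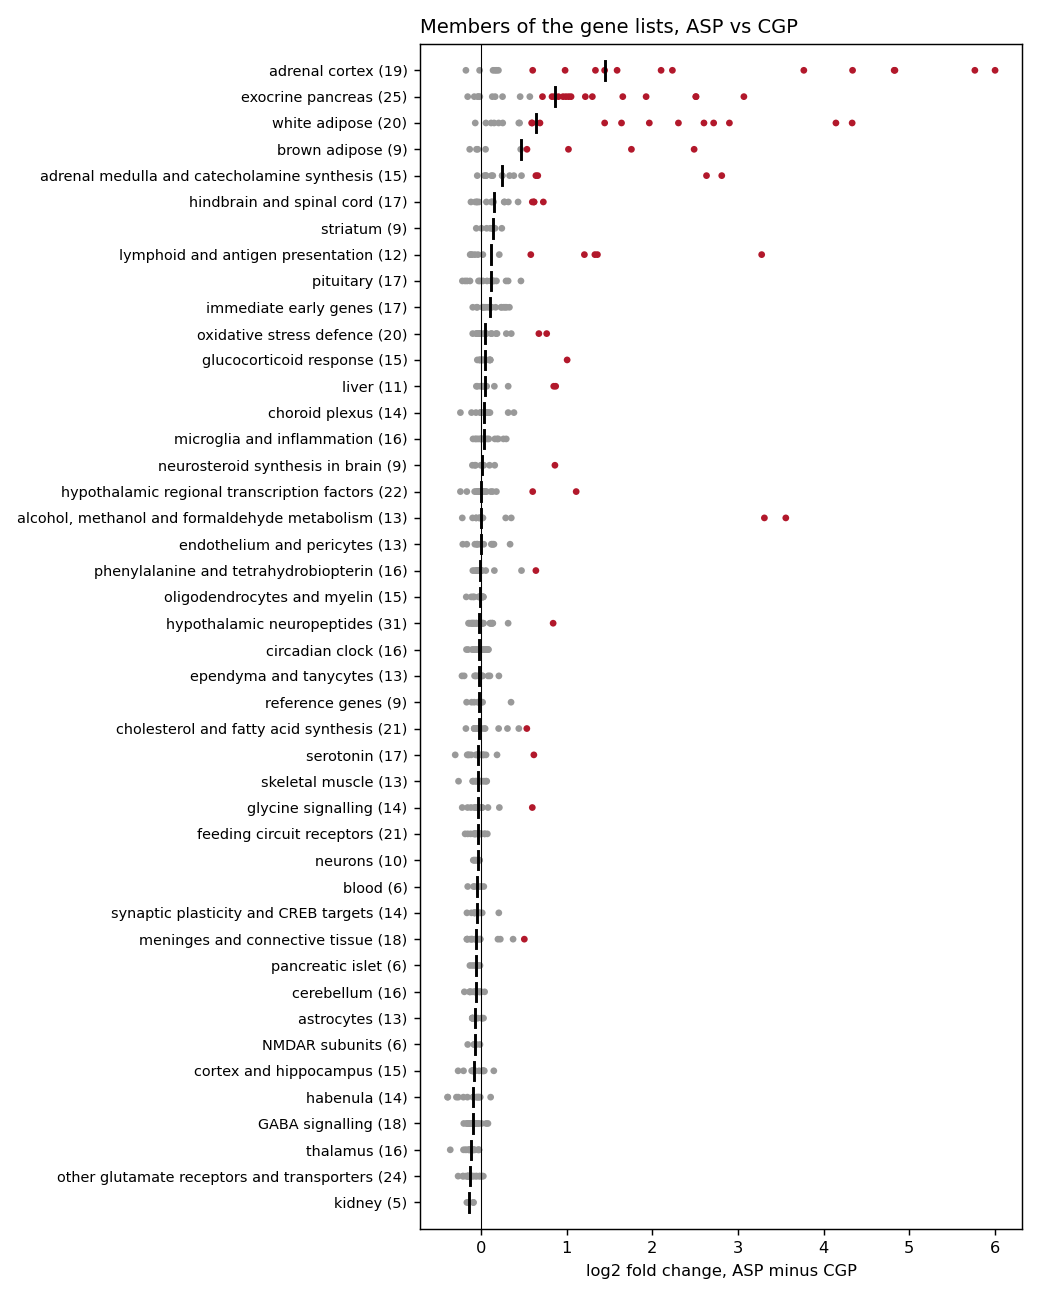
Log2 fold change, ASP minus CGP (x axis), of each measured member of the 44 gene lists (y axis, number of members in brackets), ordered by the list median (black bar), with DEGs in red. The adrenal cortex, exocrine pancreas, white adipose and brown adipose lists have the highest medians, at 1.44, 0.86, 0.64 and 0.46, and no DEG lies below 0.

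The lymphoid and antigen presentation list formed a smaller group, with 5 DEGs of 12, against 0.943% of all genes, and a median of 0.12. Cd74, the invariant chain of MHC class II, read 7.98, 8.08 and 8.15 in CGP and 9.41, 9.38 and 9.49 in ASP, a difference of 1.36 ± 0.05. The class II chains H2-Aa, H2-Ab1 and H2-Eb1 differed by 1.33 ± 0.06, 1.21 ± 0.06 and 0.58 ± 0.09, and Ly6d, a surface protein gene of lymphoid progenitors and some epithelia, by 3.28 ± 0.09. The other listed genes of the class II pathway, H2-DMa and Ciita, were not DEGs. Defining genes of T and B cells, Cd3e (−0.13), Cd79a (−0.07) and Ighm (−0.10), and the pan-leukocyte gene Ptprc (0.02) were not DEGs either. Among 16 genes of microglia and inflammation 0 were DEGs, with a median of 0.03, and 6 had all ASP arrays above all CGP arrays, against 9.9% of all genes. The interferon-induced genes Ifitm2 and Ifitm3, on no list, differed by 1.17 ± 0.09 and 0.57 ± 0.08. B2m, the light chain of MHC class I, differed by 0.35 ± 0.07 and passed by adjusted p alone.

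The promoters of 2 class II genes are shown because class II genes share a promoter plan with a CCAAT-type element near the start. The stretches are the 100 bases before the RefSeq transcript start in GRCm38.p6, 5′ to 3′ on the strand of the gene, with capitals at GATTGG or its reverse complement CCAATC. They lie at chr17:34287824-34287923 (minus strand) for H2-Aa and chr17:34305767-34305866 (plus strand) for H2-Eb1.
H2-Aa: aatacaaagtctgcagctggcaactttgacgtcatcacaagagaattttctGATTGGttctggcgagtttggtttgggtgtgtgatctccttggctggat
H2-Eb1: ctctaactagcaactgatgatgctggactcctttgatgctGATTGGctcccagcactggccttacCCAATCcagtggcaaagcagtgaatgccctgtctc
The element began 49 bases before the start in H2-Aa, and 60 and 35 bases before it in H2-Eb1. Of 32851 promoters in the RefSeq table, 14.6% held the letters on either strand within 250 bases before the start. Promoters were found for 6 of the 12 lymphoid genes, and 3 of these genes held the letters. For the adrenal cortex list, the sequence AAGGTCA or its reverse complement TGACCTT, which Nr5a1 and other nuclear receptors bind, was searched for in the same window. Promoters were found for 7 of 19 genes and 0 of these 7 held it, against 4.08% of all promoters. Hsd3b1 had the largest difference among genes with a promoter in the table. The 100 bases before its start, chr3:98859795-98859894 on the minus strand, hold neither form of it and so have no capitals.
Hsd3b1: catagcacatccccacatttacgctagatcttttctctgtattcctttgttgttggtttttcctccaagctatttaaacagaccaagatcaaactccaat
A match is a description of letters and not a site.

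Among lists for other tissues outside the brain, the liver list had 2 DEGs, or 18.2% of its measured genes, against 0.943% of all genes. Alb, serum albumin, and Hp, haptoglobin, were the DEGs among 11 liver genes, at 0.87 ± 0.09 and 0.85 ± 0.07, while Apoa1, Apoa2, Ahsg and Fgb lay within 0.05 of 0. The lists for skeletal muscle (13 genes), kidney (5) and blood (6) had 0 DEGs and medians of −0.03, −0.14 and −0.05. In the meninges and connective tissue list 1 of 18 was a DEG, the proteoglycan gene Dcn at 0.51 ± 0.05, and without the first CGP array it missed the fold threshold at 0.46. Matrix genes outside the lists, among them Pcolce, an enhancer of collagen processing (1.56 ± 0.06), Ecm1 (1.24 ± 0.05), Igfbp7 (0.75 ± 0.04) and Bgn (0.70 ± 0.05), were DEGs higher in ASP. The fibrillar collagen genes Col1a1, Col1a2 and Col3a1 were not DEGs, with −0.01, −0.01 and −0.07.

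Several metabolic lists held single large members, and their counts of DEGs stand against 0.943% of all genes. Of 13 genes of alcohol, methanol and formaldehyde metabolism, 2 were DEGs. Cyp2e1, a cytochrome that oxidizes ethanol, read 6.22, 6.39 and 6.31 in CGP and 9.94, 9.81 and 9.83 in ASP, a difference of 3.56 ± 0.06, and Adh1, an alcohol dehydrogenase, read 6.99, 7.10 and 7.199 in CGP and 10.38, 10.40 and 10.43 in ASP (3.31 ± 0.06). The remaining 11 lay between −0.22 and 0.35, Adh5, which clears formaldehyde, at −0.01 among them. Of 20 genes of oxidative stress defence 2 were DEGs, the extracellular superoxide dismutase gene Sod3 (0.77 ± 0.07) and the heme oxygenase gene Hmox1 (0.67 ± 0.05). The neurosteroid list had 1 DEG of 9, Tspo, a mitochondrial cholesterol-binding protein (0.86 ± 0.08). Another 7 of its 16 listed genes, among them Srd5a1, Srd5a2, Akr1c14 and Cyp19a1, were not analysed, so the count covers only part of the pathway. The lists of glucocorticoid response, with 1 DEG of 15, and of cholesterol and fatty acid synthesis, with 1 of 21, had as their DEGs Pdk4, a brake on glucose oxidation (1.005 ± 0.06), and Dhcr7, the last enzyme of cholesterol synthesis (0.53 ± 0.05). Fkbp5 and Tsc22d3, glucocorticoid-induced in most tissues, stood at 0.05 and 0.03. Th was the only DEG among 16 genes of phenylalanine and tetrahydrobiopterin metabolism, which had a median of −0.01. Lipid genes outside the lists, Agpat2 (1.38 ± 0.06), Plin2 (1.05 ± 0.07) and Me1 (0.81 ± 0.04), were DEGs.

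The means of CON and ASP+CGP do not enter the difference between ASP and CGP, although their arrays help to set its SE and adjusted p, and they were compared with both pools. For 157 of the 162 DEGs the CON mean lay nearer the CGP mean, and for 159 the ASP+CGP mean did. In 158 genes all 3 ASP arrays were above the other 9 arrays. The median position of CON on the way from CGP to ASP was −2.13% and that of ASP+CGP −3.52%, that is, slightly below CGP. The 5 DEGs with CON nearer ASP were Slc6a5, the small nucleolar RNA genes Snord52 and Snord73b, the small cytoplasmic RNA gene Rny1, and AI506816. In 6 DEGs all CGP arrays lay below the other 9.

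**Figure D3:**
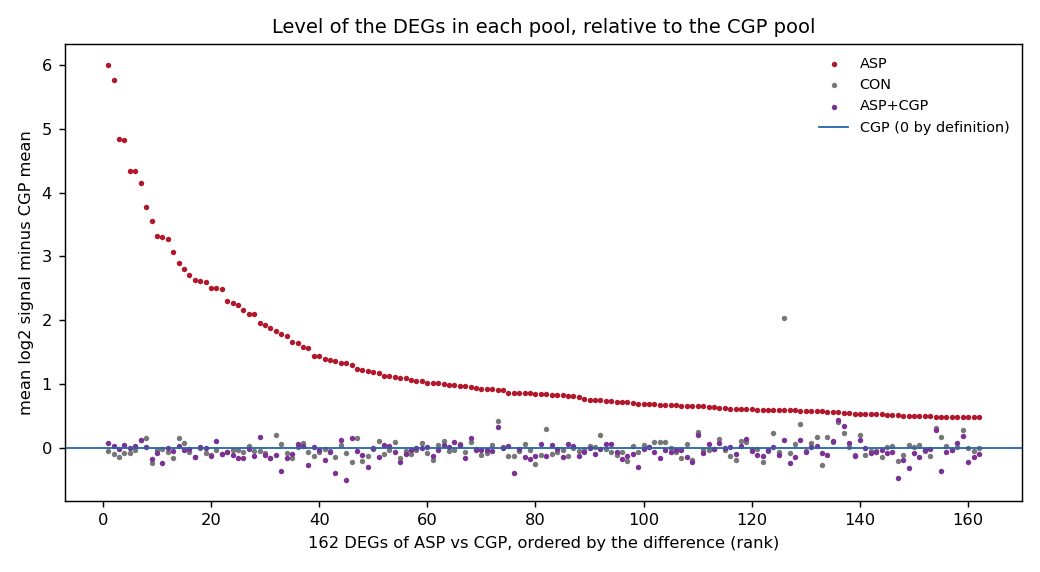
Mean log2 signal of the 162 DEGs in the ASP, CON and ASP+CGP pools relative to the CGP pool (y axis), against the rank of the ASP minus CGP difference (x axis). CON and ASP+CGP stay near 0 for nearly all genes, and the single CON point near 2 is Slc6a5, at 9.44 in CON and 7.41 in CGP.

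In Slc6a5, which encodes the neuronal glycine transporter, CON was the highest pool. Its signals were 9.37, 9.61 and 9.33 in CON, 7.46, 7.33 and 7.43 in CGP, 8.11, 8.03 and 7.88 in ASP and 7.43, 7.51 and 7.65 in ASP+CGP. All treated arrays lay below all CON arrays, and the ASP arrays lay above those of CGP and ASP+CGP. The difference between ASP and CGP was 0.60 ± 0.08 (limma adjusted p = 0.000416). Against the same CON arrays it was −1.43 ± 0.08 for ASP and −2.03 ± 0.08 for CGP. None of the other 13 genes of glycine signalling was a DEG, and the receptor subunit gene Glra1, which is on the hindbrain list together with Slc6a5, differed by −0.12. The small RNA genes were less stable. Snord52 (0.58 ± 0.14) and Snord73b (0.56 ± 0.13) each kept an adjusted p under 0.05 in 1 of 6 fits that left out an array, with adjusted p-values up to 0.146 and 0.108. Rny1 (0.49 ± 0.09) missed the fold threshold without the first ASP array (0.46), the third ASP array (0.45) or the second CGP array (0.44). AI506816 (0.49 ± 0.05) missed it without the second ASP array (0.46) or the first CGP array (0.48).

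Genes of the hindbrain and spinal cord list were DEGs for 4 of 17, against 0.943% of all genes, with a median of 0.15. Besides Slc6a5 they were Slc6a4, the serotonin transporter gene (0.62 ± 0.06), and the homeobox genes Hoxc8 (0.73 ± 0.06) and Hoxc6 (0.62 ± 0.12), members of the family that sets position along the trunk. Hoxc8 read 6.75, 6.68 and 6.71 in CGP and 7.51, 7.34 and 7.47 in ASP. Hoxc6 lay between 5.93 and 6.34 in CGP and between 6.63 and 6.85 in ASP, and its limma adjusted p of 0.0113 became 0.0599 without the third ASP array and 0.0682 without the second CGP array. Hoxb2, Hoxb5 and Hoxa5 passed by adjusted p alone (0.43, 0.32 and 0.28), Hoxb2 becoming a DEG without the third CGP array (0.50), and Hoxb9, on no list, was a DEG (0.82 ± 0.06). Tph2, the serotonin synthesis gene of raphe neurons, was not a DEG (−0.05). The tissue that the Hox transcripts came from was not tested. In the serotonin list Slc6a4 was the single DEG of 17, or 5.88%, against 0.943% of all genes.

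**Figure D4:**
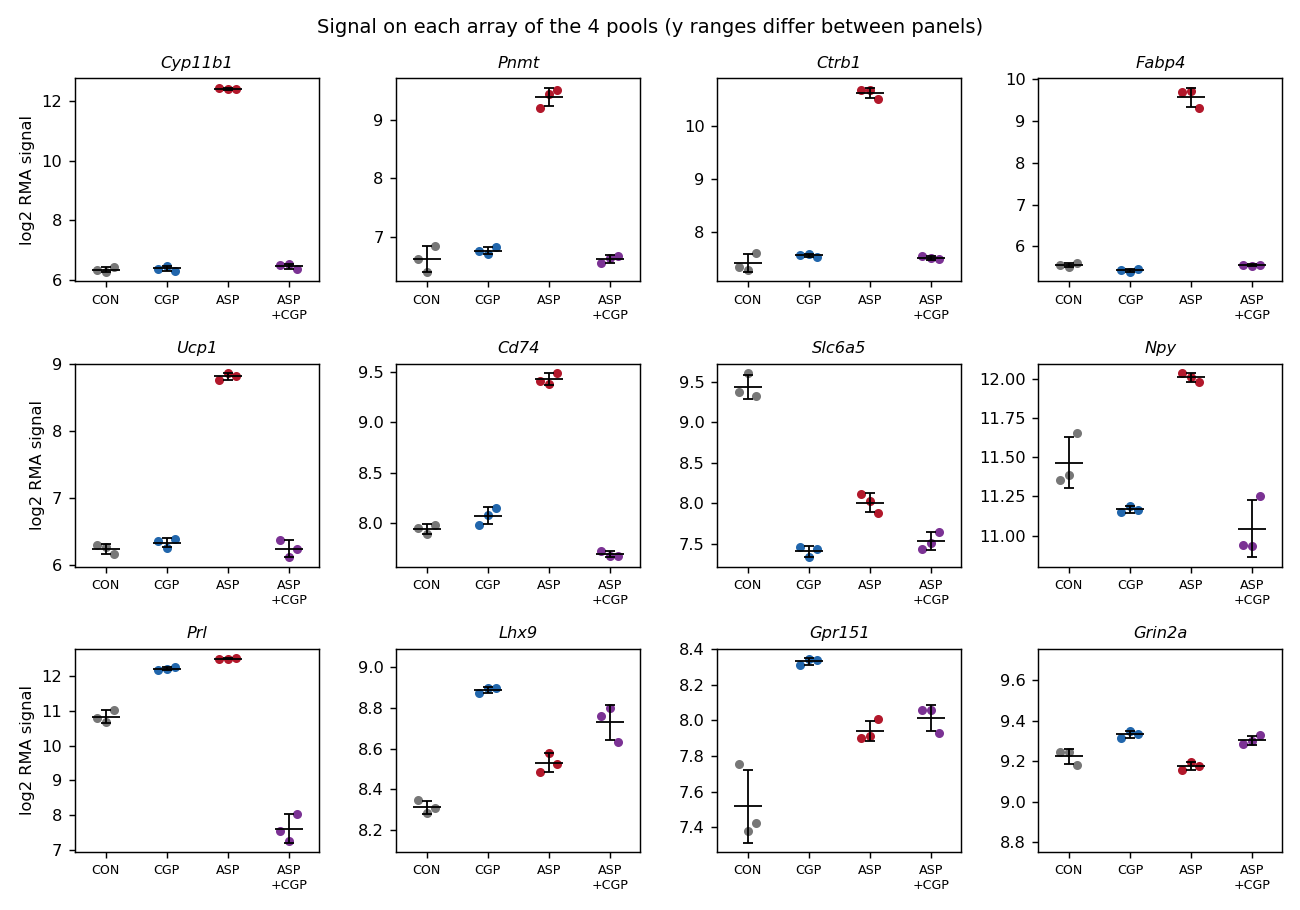
Log2 RMA signal (y axis) on each array (points) with the mean and SD of 3 arrays (bars) in the CON, CGP, ASP and ASP+CGP pools for 12 genes. Cyp11b1, Pnmt, Ctrb1, Fabp4, Ucp1 and Cd74 are high in ASP alone, Slc6a5 is highest in CON, Prl is high in both CGP and ASP and lowest in ASP+CGP, and Lhx9 and Gpr151 are highest in CGP.

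Most hypothalamic genes proper differed little. Of 31 neuropeptide genes 1 was a DEG (3.23%, against 0.943% of all genes). It was Npy, a peptide of arcuate neurons that promotes feeding and is also made by chromaffin cells. Its signals were 11.15, 11.19 and 11.16 in CGP and 12.04, 12.01 and 11.98 in ASP, a difference of 0.84 ± 0.09 (1.79-fold, limma adjusted p = 2.25e-05), with 11.47 in CON and 11.04 in ASP+CGP. The neuropeptide list had a median of −0.02. Avp, vasopressin, differed by −0.15 (95% interval −0.24 to −0.05), Oxt, oxytocin, by −0.07 (−0.18 to 0.04), Hcrt by −0.05 (−0.13 to 0.03) and Pmch by −0.02 (−0.17 to 0.14), none of them DEGs. Of 22 regional transcription factor genes, Nr5a1 and Tbx3, a factor of the arcuate region also found in many other tissues, were DEGs. They made up 9.09% of the list, against 0.943% of all genes. Tbx3 read 8.65, 8.70 and 8.72 in CGP and 9.69, 9.84 and 9.87 in ASP (1.11 ± 0.06). The other 20 lay between −0.24 and 0.18. Of 21 receptor genes of feeding circuits, 16 circadian clock genes and 14 genes of synaptic plasticity and CREB targets, 0 were DEGs, with medians of −0.04, −0.02 and −0.05. In lists this short, 0 DEGs is near the share of all genes and cannot by itself show that they differed little.

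None of the 17 measured pituitary genes, of 20 listed, was a DEG in either direction, which is near the share of 0.943% of all genes. The list median was 0.12. In 9 all ASP arrays lay above all CGP arrays, against 9.9% of all genes. In 4 all CGP arrays lay above all ASP arrays, against 20.1%. By adjusted p alone 2 were higher in ASP, against 2.47% of all genes. Prl, the prolactin gene, read 12.17, 12.21 and 12.26 in CGP and 12.51, 12.49 and 12.53 in ASP, against means of 10.83 in CON and 7.61 in ASP+CGP. All ASP arrays lay above all CGP arrays. The difference of 0.29 ± 0.14, with an SE set by the spread in all 4 pools, had a 95% interval of −0.02 to 0.60. Its limma adjusted p of 0.348 ranged from 0.0024 to 0.557 over the alternatives and was under 0.05 in 3 of 18. These were the ASP and CGP arrays fitted alone (0.0024), the fit without the third CON and ASP+CGP arrays (0.0273) and array weights (0.0499). Against the shared CON arrays Prl differed by 1.68 ± 0.14 in ASP and 1.38 ± 0.14 in CGP. Lhb, the beta chain of luteinizing hormone, read 10.40, 10.36 and 10.55 in CGP and 10.83, 10.98 and 10.90 in ASP, a difference of 0.47 ± 0.11 (limma adjusted p = 0.0259) just short of the fold threshold, which it passed without the third CGP array (0.52). Pomc, the precursor of corticotropin and of arcuate melanocortins, read 11.44, 11.48 and 11.50 in CGP and 11.74, 11.85 and 11.78 in ASP (0.32 ± 0.04, limma adjusted p = 0.000443). Gh, growth hormone, differed by 0.12 (95% interval 0.03 to 0.20), Cga, the shared glycoprotein hormone chain, by 0.07 (−0.15 to 0.29), Tshb, the thyrotropin chain, by 0.18 (−0.01 to 0.37) and Fshb, the follitropin chain, by −0.22 (−0.36 to −0.08). Epcam, an epithelial surface protein, was higher in ASP by 0.40 ± 0.07, with 7.05 in CON and 6.69 in ASP+CGP. The mean linear signal over the 17 pituitary genes, given as its log2, was 11.26 to 11.27 on the ASP arrays and 11.10 to 11.12 on the CGP arrays.

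Genes higher in CGP differed by little. By adjusted p alone 162 genes, 0.943%, were higher in CGP, none of them by more than 1.4-fold. That number depended on single arrays. It was 51 to 77 when any 1 of the 6 arrays was left out, 398 when the 6 arrays were fitted alone, 619 without the third arrays of CON and of ASP+CGP, and 828 with array weights. All 3 CGP arrays lay above all 3 ASP arrays in 20.1% of genes.

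Habenula genes were among those higher in CGP. The habenula is a small relay above the thalamus that inhibits midbrain monoamine neurons. Of 14 measured genes 0 were DEGs, and the median was −0.09. By adjusted p alone 5 were higher in CGP, against 0.943% of all genes. All CGP arrays lay above all ASP arrays in 8, against 20.1% of all genes. Gpr151, an orphan receptor of habenular neurons, read 8.31, 8.35 and 8.34 in CGP and 7.90, 7.91 and 8.005 in ASP, a difference of −0.39 ± 0.08 (limma adjusted p = 0.012). The arrays did not overlap, but the adjusted p was under 0.05 in only 2 of the 6 fits that left out an array (0.0239 to 0.0564). Nwd2 read 9.15, 9.29 and 9.21 in CGP and 8.86, 8.83 and 8.79 in ASP (−0.39 ± 0.07), and Chrnb4, a nicotinic receptor subunit, read 9.16, 9.07 and 9.17 in CGP and 8.86, 8.88 and 8.87 in ASP (−0.27 ± 0.05). Both kept an adjusted p under 0.05 in all 6 such fits. The other 2 members were the transcription factor genes Pou4f1 (−0.29 ± 0.07) and Irx2 (−0.21 ± 0.05), each under 0.05 in 1 of 6 fits, with adjusted p-values up to 0.125 and 0.155.

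The thalamus list had all 16 members lower in ASP than in CGP, as were 65% of all genes, and a median of −0.12. In 13 of the 16 all CGP arrays lay above all ASP arrays, against 20.1% of all genes. Lhx9, a factor of thalamic and habenular development, read 8.87, 8.90 and 8.90 in CGP and 8.49, 8.58 and 8.52 in ASP (−0.36 ± 0.05, limma adjusted p = 0.000355), and it stayed under 0.05 in all 18 alternatives. Rora, a nuclear receptor, was the other member past adjusted p (−0.21 ± 0.04), and was under 0.05 in 3 of 6 fits without an array, with values up to 0.0638. Tcf7l2, abundant in thalamic neurons, differed by −0.14 ± 0.04 without passing (limma adjusted p = 0.0874). Outside the lists, Scube1, a secreted protein gene, read 8.92, 9.01 and 9.05 in CGP and 8.58, 8.70 and 8.60 in ASP (−0.37 ± 0.05), and Zic5 differed by −0.32 ± 0.05, both under 0.05 in all 18 alternatives. For these genes CON lay lowest, at 7.52 for Gpr151, 8.34 for Chrnb4, 8.31 for Lhx9 and 8.36 for Scube1. The largest difference in this direction, −0.41 ± 0.07, belonged to Ferd3l, a developmental transcription factor gene read at 6.31, 6.45 and 6.57 in CGP and 6.09, 5.99 and 6.01 in ASP, near background. Hsp90aa1, the stress-inducible chaperone, differed by −0.27 ± 0.05.

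Other brain regions showed small shifts as well. The cerebellum list (16 genes) and the list of cortex and hippocampus (15 genes) had 0 DEGs and medians of −0.06 and −0.08. The vesicular glutamate transporter gene Slc17a7 was the single member past adjusted p in the latter (−0.27 ± 0.06), and 0 of 6 fits without an array kept it (adjusted p 0.0887 to 0.129). Of the 9 striatum genes 8 lay the other way, with a median of 0.13 over the list, but 0 were DEGs. In 6 all ASP arrays lay above all CGP arrays, against 9.9% of all genes. Choroid plexus (14 genes, median 0.04) and ependyma and tanycytes (13 genes, −0.02) had 0 DEGs.

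NMDAR subunit genes, the targets of the antagonist, were not DEGs. All 6 measured genes were lower in ASP than in CGP, by −0.16 for Grin2a to −0.01 for Grin2d, against 65% of all genes that lay below 0. Grin2a, a subunit whose share grows as synapses mature, read 9.31, 9.35 and 9.33 in CGP and 9.16, 9.20 and 9.17 in ASP, a difference of −0.16 ± 0.04 (limma adjusted p = 0.04). Its arrays did not overlap, but 0 of 6 fits without an array kept the adjusted p under 0.05 (0.0894 to 0.147). The 95% interval was −0.26 to 0.10 for Grin2b, −0.15 to 0.05 for Grin2c, −0.19 to 0.16 for Grin2d, −0.23 to 0.06 for Grin3a and −0.15 to 0.02 for Grin3b. Grin1, the obligatory subunit, was not analysed here.

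Other genes of fast transmission lay slightly lower in ASP. Of 24 further glutamate receptor and transporter genes 0 were DEGs, 21 lay below 0, and 18 had all CGP arrays above all ASP arrays, against 20.1% of all genes, with a median of −0.12. Grm7, a presynaptic glutamate receptor, differed by −0.21 ± 0.04 (limma adjusted p = 0.0115) and stayed under 0.05 in 5 of 6 fits that left out an array, with 0.0701 in the other. Slc17a6, the vesicular transporter of thalamic and hypothalamic glutamate neurons, differed by −0.18 ± 0.06 without passing. Among 18 GABA genes 0 were DEGs, 15 lay below 0 and 12 had CGP arrays all above ASP arrays, with a median of −0.10. Genes shared by all neurons lay nearer 0, with a median of −0.04 over 10 genes, and astrocyte, oligodendrocyte and endothelial lists had 0 DEGs of 13, 15 and 13 and medians of −0.07, −0.01 and −0.01. The thalamus and habenula lists moved with the glutamate list, and their part in it was not tested.

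Immediate early genes, which neurons and other cells switch on within minutes of a stimulus, had 0 DEGs of 17 and a median of 0.11. By adjusted p alone 5 were higher in ASP, against 2.47% of all genes. Nr4a1 read 10.37, 10.38 and 10.38 in CGP and 10.58, 10.77 and 10.77 in ASP (0.33 ± 0.08), and Fosl2, Jun, Nr4a3 and Btg2 differed by 0.30 ± 0.06, 0.28 ± 0.07, 0.26 ± 0.05 and 0.24 ± 0.05. The first ASP array was the lowest of the 3 for Nr4a1, Fosl2 and Jun. Nr4a3 kept an adjusted p under 0.05 in all 6 fits without an array, Fosl2 and Btg2 in 3 (up to 0.0567 and 0.0633), and Nr4a1 and Jun in 1 (up to 0.141 and 0.154). Fos (0.06), Arc (0.02) and Npas4 (−0.10), the members most tied to neuronal firing, did not pass.

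Reference genes framed the size of these values. Of 9 such genes 0 were DEGs, and their differences ran from −0.17 to 0.35. The highest was that of B2m, which passed by adjusted p alone. Actb, beta-actin, read 13.96, 13.98 and 13.96 in CGP and 13.96, 13.95 and 13.92 in ASP (−0.03, 95% interval −0.13 to 0.08). Lamp5 and Bpifa1 lay lower in both pools than in CON, with means of 9.16 in ASP and 9.12 in CGP against 9.70 in CON for Lamp5, and 6.83 and 6.99 against 7.87 for Bpifa1. Between ASP and CGP they differed by 0.04 (−0.09 to 0.16) and −0.16 (−0.32 to −0.004). The mean levels of the adrenal, pancreas, adipose and lymphoid lists were each higher on the ASP arrays. Over the 19 adrenal cortex genes the log2 of the mean linear signal was 10.56 to 10.59 on the ASP arrays and 8.86 on each CGP array, and over the 25 exocrine pancreas genes 8.32 to 8.38 and 7.08 to 7.13. Over the 20 white adipose genes it was 10.41 to 10.45 and 9.83 to 9.84, and over the 12 lymphoid genes 8.70 to 8.78 and 7.73 to 7.75, although 5 of these 12 genes lay below 0. Of the 162 DEGs, 55 belonged to the adrenal, pancreas, adipose, lymphoid or liver lists, 14 to other lists alone and 93 to none. The part of tissue from outside the brain in any of these DEGs was not tested.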

How the data were processed

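Hypothalamic RNA, pooled over the mice of each group, was measured on 12 arrays (Affymetrix Mouse Gene ST), 3 each for CON, CGP, ASP and ASP+CGP. Groups came from the sample labels. The deposited values are log2 signals, which the authors made by RMA in Partek (background correction, quantile normalization over arrays, median polish). Quantile normalization removes a shift common to most genes, and background within weak signals makes fold changes too small. Of 29149 probe sets, 19019 had 1 gene symbol in the platform annotation, and 18947 of these were found in RefSeq (GRCm38.p6). Probe sets reaching a log2 signal of 6 on 3 or more arrays (18810) were retained, the brightest per gene was taken, and 17186 genes remained.

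The log2 values of the 12 arrays were fitted in limma (version 3.58.1, R 4.3.3; lmFit, eBayes) by group means with a shared spread, after the ANOVA contrasts of the study's methods (8 residual and 5.43 prior degrees of freedom). Values after ± are standard errors of the log2 fold change and intervals cover 95%. An exact permutation test per gene cannot pass 0.05 with 3 arrays in each group, so none was run. The steps were tested on simulated data. The number of arrays limits the precision.

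The comparison, the 44 gene lists and the rule for named genes were chosen with earlier results of these data known. The rule took the 12 largest differences in each direction among DEGs whose arrays did not overlap, up to 5 DEGs per list, Actb, the NMDAR subunit genes and fixed pituitary, habenula and other genes. All other named genes, and the motif GATTGG, were chosen after their values were seen. Alternatives were other filters, probe set rules, normalizations, tests, adjustments and fold thresholds, a replicate block, and leaving out each array in turn.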

Additional observations from a re-analysis of the deposited data

How the results depend on the processing

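The count of DEGs higher in ASP stayed at 150 to 167 under all alternatives that kept the fold threshold, and 0 genes were higher in CGP in each of them. It ranged from 157 to 165 when 1 ASP or CGP array was left out, with 0 to 0 higher in CGP. Of the 162 DEGs, 140 were called in all 6 of those fits and 137 in all 17 alternatives with the same fold threshold and no stricter filter. Without a fold threshold the counts were 425 higher in ASP and 162 higher in CGP, and at fold thresholds of 1.8 and 2 they were 81 and 63 higher in ASP. By adjusted p alone the counts were 704 higher in ASP and 828 in CGP with array weights, and 648 and 619 without the third CON and ASP+CGP arrays. Signs were followed for the 126 named genes alone, and leaving out arrays turned the sign of 3 of them, all far from significance. Their ranges were −0.0441 to 0.0187 for Grin2d (above 0 without the first ASP array), −0.0067 to 0.0708 for Lamp5 (below 0 without the third CGP array) and −0.0359 to 0.0135 for Pmch (above 0 without the second CGP array). With the replicate number as a block, 164 genes were higher in ASP and 0 in CGP. Across genes, the deviations of same-numbered ASP and CGP arrays had r of −0.0158, 0.135 and 0.0423. Between differently numbered ASP and CGP arrays r ran from −0.12 to 0.0928. These values cannot show whether arrays of one number shared a batch, which was not tested. Each group is 1 pool, so no fit shows the spread between mice, and levels near background bound how large a fold change can be read.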

Other observations

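Further DEGs outside the lists, chosen after their values were seen, were the drug transporter gene Abcb1b (2.10 ± 0.07), the aldo-keto reductase gene Akr1b8 (1.402 ± 0.05) and the interferon-induced gene Ifi27l2a (0.84 ± 0.09), all higher in ASP, with CON means of 6.60, 6.01 and 7.02 against CGP means of 6.56, 6.02 and 7.10. Among genes higher in CGP by adjusted p alone, Cfap52, a gene of motile cilia, differed by −0.31 ± 0.06 and was under 0.05 in all 18 alternatives. The serotonin receptor gene Htr5b, found in the habenula and raphe, differed by −0.30 ± 0.07 and was under 0.05 in 3 of 6 fits without an array (up to 0.112). The transcription factor genes Tfap2d (−0.36 ± 0.08) and Otx2 (−0.24 ± 0.06) were under 0.05 in 3 and 0 of 6 such fits.

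The same fit was made for probe sets without a unique gene symbol, which are not named. Of 1168 with several symbols, 11 were higher in ASP and 0 in CGP, with a largest log2 fold change of 3.83. Of 8542 without a symbol, 29 were higher in ASP and 3 higher in CGP, and the values ran from −1.47 to 5.01. Of the DEGs with several tested probe sets, Hspb1, Ifitm2 and Me1 were called by each of them, whereas Rmdn2 was called at 0.62 and not at 0.30, and S100a11 at 0.49 and not at 0.42.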
